A study of Mus musculus with 8 samples.

Results

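The genes described here are 10 targets of the transcription factor NRF2 that carry out redox chemistry, namely Nqo1, Gclc, Gclm, Txnrd1, Srxn1, G6pdx, Gsr, Me1, Osgin1 and Slc7a11. They were given as a list of symbols and matched to Ensembl identifiers, and all 10 were found among the 47643 genes of the count files. Messenger RNA of whole mouse kidney was sequenced from 4 cKO mice, which carry Six2-Cre and a floxed Cox10 gene on both chromosomes (Six2-Cre;Cox10-fl/fl), and from 4 WT mice, described only as wild type. Cox10 encodes heme A farnesyltransferase, an enzyme that the assembly of respiratory complex IV requires. The mice were 3 months old, except that the labels give 2.5 months for replicate 2 of both groups, where the study's design text gives 3 months throughout. Six2-Cre is active in the progenitors of the nephron, whose descendants form its epithelium from podocyte to distal tubule, while collecting duct, vessels, stroma and blood cells have another origin. Whether WT mice carried Cre or floxed alleles was not stated. The labels number the samples within each genotype without naming litters, and the p-values measure the spread between these samples.

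NRF2, encoded by Nfe2l2, is held at a low level by KEAP1, which presents it to a ubiquitin ligase for degradation. Electrophiles and oxidants modify KEAP1, NRF2 then accumulates, pairs with a small MAF protein and binds antioxidant response elements near its target genes. These targets make glutathione, reduce oxidised thioredoxin and glutathione, supply NADPH and detoxify quinones, and in kidney much of this work falls to the proximal tubule.

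In cKO kidneys 3 of the 10 genes rose, Nqo1, Srxn1 and G6pdx, and 1 fell, Me1. The Me1 call was lost in 10 of the 23 alternative fits described below. The other tested genes, Gclc, Gclm, Txnrd1, Gsr and Osgin1, did not pass the test, and Slc7a11 had too few reads to be tested. Over all 13829 genes tested, 9.57% were higher and 7.14% were lower in cKO kidneys by the same criterion (edgeR quasi-likelihood test, Benjamini-Hochberg adjusted p below 0.05). Levels are given as CPM, a gene's counts relative to the scaled total of its library, with the SD over 4 mice, and fold changes as log2 of cKO over WT. In whole tissue, fewer cells of a type and less RNA per cell cannot be told apart.

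The promoters of the 4 genes that changed and of Gclm, which did not pass the test, are shown because an antioxidant response element defines the family. The windows differ in holding TGACNNNGC, a form of its core. The windows run from 250 bases before to 50 bases after the annotated start and come from RefSeq (GRCm38.p6). They were searched on both strands for TGACNNNGC and for no other form of the core, and matches are in capitals. In Srxn1, G6pdx and Gclm the match is on the opposite strand, so that the capitals show its reverse complement. Each is given 5′ to 3′ on the gene's own strand, from chr8:107403156-107403455 (minus strand) for Nqo1, chr2:152105274-152105573 (plus) for Srxn1, chrX:74428831-74429130 (minus) for G6pdx, chr9:86695865-86696164 (minus) for the first of 2 windows of Me1 and chr3:122245307-122245606 (plus) for Gclm.
Nqo1: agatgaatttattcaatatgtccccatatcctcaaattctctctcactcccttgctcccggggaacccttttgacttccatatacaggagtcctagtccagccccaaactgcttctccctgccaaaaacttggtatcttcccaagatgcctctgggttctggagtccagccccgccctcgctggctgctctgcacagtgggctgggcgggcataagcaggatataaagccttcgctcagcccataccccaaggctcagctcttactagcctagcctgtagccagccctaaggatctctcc
Srxn1: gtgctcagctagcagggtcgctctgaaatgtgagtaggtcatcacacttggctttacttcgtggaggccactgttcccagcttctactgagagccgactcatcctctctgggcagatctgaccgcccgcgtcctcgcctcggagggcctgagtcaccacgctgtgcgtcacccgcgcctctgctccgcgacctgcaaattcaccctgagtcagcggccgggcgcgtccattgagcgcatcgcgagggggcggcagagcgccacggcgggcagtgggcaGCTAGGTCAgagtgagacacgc
G6pdx: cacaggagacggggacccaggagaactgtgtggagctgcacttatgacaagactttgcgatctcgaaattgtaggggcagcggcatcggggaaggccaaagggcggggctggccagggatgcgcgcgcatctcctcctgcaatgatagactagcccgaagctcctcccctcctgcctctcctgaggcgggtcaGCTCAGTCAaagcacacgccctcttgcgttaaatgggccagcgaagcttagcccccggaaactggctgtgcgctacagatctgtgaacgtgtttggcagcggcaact
Me1: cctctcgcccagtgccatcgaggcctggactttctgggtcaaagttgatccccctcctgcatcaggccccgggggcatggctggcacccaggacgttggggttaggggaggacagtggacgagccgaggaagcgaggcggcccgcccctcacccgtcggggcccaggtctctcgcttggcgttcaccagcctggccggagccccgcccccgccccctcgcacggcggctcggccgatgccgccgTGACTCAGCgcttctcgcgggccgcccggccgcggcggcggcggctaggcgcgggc
Gclm: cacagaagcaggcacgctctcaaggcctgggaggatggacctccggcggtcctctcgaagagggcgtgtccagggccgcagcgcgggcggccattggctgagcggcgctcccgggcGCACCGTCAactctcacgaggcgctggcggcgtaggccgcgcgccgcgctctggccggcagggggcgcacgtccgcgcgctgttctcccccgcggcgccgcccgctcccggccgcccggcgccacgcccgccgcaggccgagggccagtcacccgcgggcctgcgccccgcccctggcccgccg

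RefSeq windows were matched for 8 of the 10 genes, 11 windows in all, and those of Gclc and Gsr were not analysed here. TGACNNNGC was in windows of 5 genes, 5 of the 11 windows, against 12.4% of all 32851 mouse promoter windows of this length. The match in Gclm, TGACGGTGC, began 134 bases before the start, and that in G6pdx, TGACTGAGC, began 57 bases before it. The match in Srxn1, TGACCTAGC, lay after the start, at bases 29 to 37. In Me1 the match TGACTCAGC spanned the start itself, and its first 7 letters are also an AP-1 site (TGANTCA), a motif held by 7.81% of all windows. Txnrd1 had TGACAAAGC in 1 of its 3 windows, 92 bases before that start. The windows of Nqo1, Osgin1 and Slc7a11 held no match to TGACNNNGC, and the AP-1 motif was also in those of Srxn1 and Osgin1. Of the genes with a match to TGACNNNGC, Srxn1 and G6pdx rose, Me1 fell, and Gclm and Txnrd1 did not pass the test. Other forms of the core, and sequence outside the windows, were not searched. A gene without a match may therefore have an element of another form in its window, or one elsewhere. A relation between the element and the direction of the RNA was therefore not tested. A match is a description of the letters and not of binding.

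The libraries held between 9454830 and 15838026 counts. Cox10 itself averaged 18.4 ± 5.12 CPM in cKO and 21.0 ± 2.47 CPM in WT kidneys (log2 fold change -0.19, edgeR adjusted p 0.619). Which exons of Cox10 were floxed is not stated, so its total count cannot check them. Reads from Y-linked genes were absent from 3 of 4 cKO libraries (all but cKO 3) and from 1 of 4 WT libraries (WT 1). The labels do not give sex, so each result was also fitted with presence of Y-linked reads as a term, which left 5.17% of genes higher and 1.63% lower. Cell type markers differed between the genotypes. The summed level of 18 proximal tubule markers was 5144 to 21079 CPM in cKO and 58433 to 92774 CPM in WT kidneys, with 8 of 18 lower. Kap, the kidney androgen-regulated protein gene, held most of the WT sum, at 124 to 8662 CPM in cKO and 38650 to 69538 CPM in WT kidneys. The other 17, a sum taken after the data were seen, were at 4389 to 12506 CPM in cKO and 15044 to 26113 CPM in WT kidneys, and with presence of Y-linked reads as a term 1 of the 18, Kap, was lower. In the fit without that term, 12 of 12 tubular injury markers were higher, at 12700 to 27101 CPM in cKO and 867 to 2656 CPM in WT kidneys. Macrophage markers (20 of 22 higher) summed to 658 to 1032 CPM in cKO and 166 to 338 CPM in WT kidneys, and fibroblast markers (11 of 12 higher, 1 lower) to 723 to 1122 CPM in cKO and 188 to 297 CPM in WT kidneys. With the term, 11 tubular injury, 15 macrophage and 7 fibroblast markers were higher, and 0 of these were lower. None of the 11 neutrophil markers had enough reads to be tested, and Ngp, Camp and Mpo were at 0 in every library. Of the markers of other cells tested, 1 of 7 for thick ascending limb was higher and 2 were lower. For these and the other marker counts without the term, the shares over all tested genes were 9.57% higher and 7.14% lower. Distal tubule and collecting duct, which differ in origin, share 1 list, of which 5 of 13 were higher and 3 lower. For podocytes 0 of 6 changed, and 1 of 8 for lymphocytes was higher. For endothelium 3 of 10 were lower, 1 of 9 for adipocytes was higher and 5 of 5 for red blood cells were lower. Slc4a1 is in both the red blood cell list and that of distal tubule and collecting duct. With the term, thick ascending limb had 1 higher and 2 lower, and distal tubule and collecting duct 1 higher and 2 lower. Podocytes and adipocytes then had 0 called, lymphocytes 1 higher, endothelium 1 lower and red blood cells 3 lower. What these shifts in cell makeup contribute to the levels below was not tested.

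Nqo1 encodes NAD(P)H quinone dehydrogenase 1, which reduces quinones in a single step without releasing a semiquinone radical. The gene lies at chr8:107388225-107403206 on the minus strand of GRCm38. It stood at 333, 489, 357 and 268 CPM in cKO 1 to 4, against 78.2, 109, 60.1 and 77.5 CPM in WT 1 to 4. Every cKO library was above every WT library, and in each group the 2.5-month mouse was the highest. The means were 362 ± 92.8 CPM in cKO and 81.3 ± 20.5 CPM in WT kidneys (SD, n = 4 each), a ratio of 4.45. The log2 fold change was 2.15 (SE 0.27, 95% interval 1.56 to 2.75, edgeR adjusted p 0.000622). With presence of Y-linked reads as a term the value was 2.17 (adjusted p 0.00233). Within the libraries that had Y-linked reads, cKO 3 against WT 2 to 4, it was 2.12 (adjusted p 0.0247), and within those that had none, cKO 1, 2 and 4 against WT 1, it was 2.21 (adjusted p 0.103). Leaving out any 1 library kept the call, with an adjusted p of at most 0.00314.

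**Figure D1:**
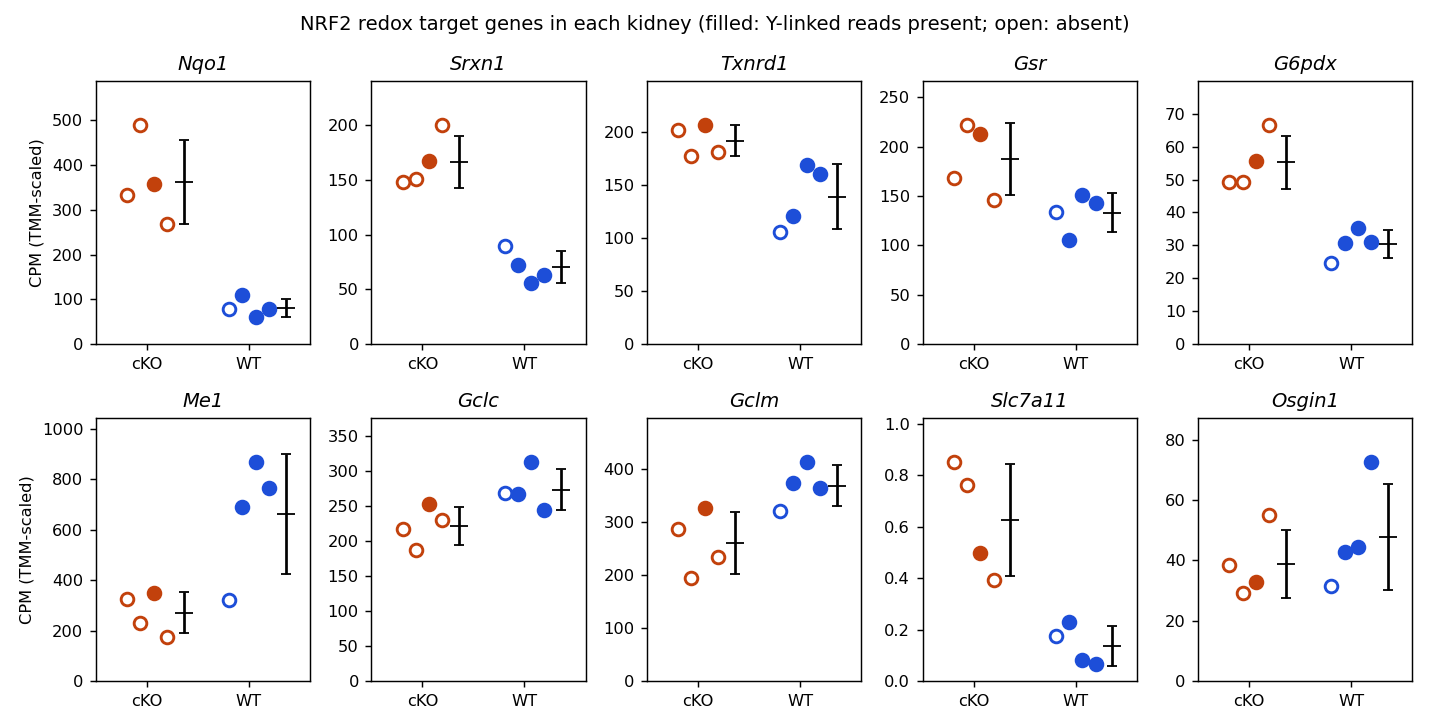
Level of each of the 10 genes in every library, in CPM on axes that start at 0, with cKO left of WT. Points are mice, filled where Y-linked reads were present, and bars give the mean and SD of 4 mice. The 4 cKO libraries are above the 4 WT libraries for Nqo1, Srxn1, G6pdx, Txnrd1 and Slc7a11, and the groups overlap for the other genes, Me1 included.

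Glutathione is made from glutamate, cysteine and glycine, and its first and rate-limiting step is carried out by glutamate-cysteine ligase, whose catalytic subunit is encoded by Gclc and whose modifier subunit by Gclm. Neither transcript passed the test, and both averaged lower in cKO kidneys. Gclc (chr9:77754535-77794485, plus strand) was at 217, 187, 253 and 231 CPM in cKO 1 to 4 and at 269, 267, 314 and 245 CPM in WT 1 to 4. Only cKO 3 reached into the WT range. The means were 222 ± 27.8 CPM in cKO and 274 ± 29.1 CPM in WT kidneys, with a log2 fold change of -0.30 (95% interval -0.76 to 0.15, edgeR adjusted p 0.333). Gclm (chr3:122245557-122270732, plus strand) was at 287, 195, 327 and 234 CPM in cKO 1 to 4 and at 321, 374, 414 and 365 CPM in WT 1 to 4. Again cKO 3 alone overlapped the WT libraries. The means were 261 ± 58.2 CPM in cKO and 368 ± 38.2 CPM in WT kidneys, with a log2 fold change of -0.50 (95% interval -1.01 to 0.02, edgeR adjusted p 0.164). Both 95% intervals lie below that of Nqo1. Gclm shares 296 exon bases with Gm17494 on the opposite strand, to which 41 counts in all were assigned.

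Slc7a11 encodes the light chain of the cystine and glutamate antiporter, which brings in cystine for glutathione synthesis. It was barely detected: 14, 7, 7 and 6 counts were assigned to it (chr3:49892526-50443614, minus strand) in cKO 1 to 4, against 2, 2, 1 and 1 in WT 1 to 4. These correspond to 0.626 ± 0.217 CPM in cKO and 0.137 ± 0.0777 CPM in WT kidneys. Every cKO library was above every WT library. Fitted without the filter on low counts, its log2 fold change was 2.18 (SE 0.74, edgeR adjusted p 0.062). It is the one gene of the 10 whose level is near the detection limit in both genotypes.

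Gsr encodes glutathione reductase, which returns oxidised glutathione to its reduced form with NADPH. Gsr (chr8:33652523-33698163, plus strand) was at 168, 222, 213 and 146 CPM in cKO 1 to 4 and at 134, 105, 151 and 143 CPM in WT 1 to 4. Its highest values were in cKO 2 and cKO 3, and cKO 4 lay inside the WT range. The means of 187 ± 36.1 CPM in cKO and 133 ± 19.8 CPM in WT kidneys gave a log2 fold change of 0.49 (95% interval 0.02 to 0.97), and its edgeR adjusted p was 0.139.

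The thioredoxin arm was represented by Txnrd1 and Srxn1. Txnrd1 encodes the cytosolic thioredoxin reductase, a selenoprotein that keeps thioredoxin reduced at the expense of NADPH. Txnrd1 (chr10:82833951-82897712, plus strand) was at 202, 178, 207 and 181 CPM in cKO 1 to 4 and at 106, 121, 169 and 161 CPM in WT 1 to 4. The groups did not overlap, although WT 3 and cKO 2 lay close together. The means were 192 ± 14.7 CPM in cKO and 139 ± 30.6 CPM in WT kidneys, and the log2 fold change of 0.46 (95% interval -0.00 to 0.93) did not pass the test (edgeR adjusted p 0.154).

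Srxn1 encodes sulfiredoxin, which restores peroxiredoxins whose catalytic cysteine has been overoxidised. Srxn1 (chr2:152105516-152111376, plus strand) was at 148, 151, 167 and 200.3 CPM in cKO 1 to 4 and at 89.7, 72.3, 56.0 and 63.0 CPM in WT 1 to 4. All cKO libraries were above all WT libraries, with cKO 4 the highest and WT 1 the highest of its group. The means were 167 ± 24.0 CPM in cKO and 70.3 ± 14.6 CPM in WT kidneys, a ratio of 2.37. The log2 fold change was 1.25 (SE 0.21, 95% interval 0.78 to 1.71, edgeR adjusted p 0.00321). It was 1.14 with presence of Y-linked reads as a term (adjusted p 0.0153), 1.39 within libraries with such reads (adjusted p 0.0519) and 0.89 within libraries without them (adjusted p 0.392). Without WT 4 and cKO 4 it was 1.06 and no longer passed the test (adjusted p 0.0684).

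Of the genes that supply NADPH, G6pdx was called higher and Me1 lower, the latter a call lost with presence of Y-linked reads as a term. G6pdx encodes glucose-6-phosphate dehydrogenase, the entry enzyme of the pentose phosphate pathway, and is X-linked (chrX:74409483-74429194, minus strand). It was at 49.4, 49.4, 55.5 and 66.6 CPM in cKO 1 to 4 and at 24.7, 30.8, 35.2 and 31.0 CPM in WT 1 to 4. Every cKO library was above every WT library, and WT 1, without Y-linked reads, was the lowest. The means were 55.2 ± 8.09 CPM in cKO and 30.4 ± 4.33 CPM in WT kidneys, a ratio of 1.82. The log2 fold change was 0.86 (SE 0.19, 95% interval 0.44 to 1.29, edgeR adjusted p 0.0129). With presence of Y-linked reads as a term it was 0.97 (adjusted p 0.0359), and within libraries with and without such reads it was 0.78 (adjusted p 0.284) and 1.16 (adjusted p 0.211). Without WT 4 and cKO 4 it was 0.74 and did not pass the test (adjusted p 0.122). G6pdx shares 418 exon bases with Ikbkg on the opposite strand, and the strand setting of the counting was not given in the sources used here. Ikbkg averaged 36.6 ± 5.50 CPM in cKO and 34.2 ± 2.96 CPM in WT kidneys, with a log2 fold change of 0.10 (edgeR adjusted p 0.734). The retrogene G6pd2 was at 0 in every library.

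Me1 encodes cytosolic malic enzyme, which makes NADPH while turning malate into pyruvate. Me1 (chr9:86581371-86695953, minus strand) was at 327, 231, 348 and 176 CPM in cKO 1 to 4 and at 323, 691, 871 and 768 CPM in WT 1 to 4. WT 1 lay inside the cKO range, and the other WT libraries were far above every cKO library. The means were 271 ± 81.0 CPM in cKO and 663 ± 239 CPM in WT kidneys, a ratio of 0.408. The log2 fold change was -1.29 (SE 0.35, 95% interval -2.05 to -0.54, edgeR adjusted p 0.0262). The call was lost in 10 of the 23 alternatives tried, more than for Nqo1 (1), Srxn1 (3) or G6pdx (3). WT 1 is also the only WT library without Y-linked reads, and with their presence as a term the value was -0.78 (adjusted p 0.232). Within libraries with Y-linked reads it was -1.16 (adjusted p 0.286), and within those without, where the 3 cKO libraries at 176 to 327 CPM met WT 1 at 323 CPM, it was -0.40 (adjusted p 0.848). The call was also lost without cKO 2 (-1.22, adjusted p 0.0644), without cKO 4 (-1.13, adjusted p 0.09), without WT 2 (-1.28, adjusted p 0.0502), without WT 3 (-1.14, adjusted p 0.0658) and without WT 4 (-1.21, adjusted p 0.0723). Of the 18 proximal tubule markers, 8 were lower in the fit that called Me1 and 1 with presence of Y-linked reads as a term, and their part in the Me1 level was not tested.

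Osgin1, the oxidative stress induced growth inhibitor 1 gene (chr8:119434124-119446256, plus strand), was at 38.3, 29.2, 32.8 and 54.9 CPM in cKO 1 to 4 and at 31.5, 42.6, 44.4 and 72.7 CPM in WT 1 to 4. Replicate 4 was the highest in both groups, and the groups overlapped. The means were 38.8 ± 11.4 CPM in cKO and 47.8 ± 17.6 CPM in WT kidneys, with a log2 fold change of -0.30 (95% interval -0.92 to 0.32, edgeR adjusted p 0.489). Its sign was not stable, at 0.38 within libraries without Y-linked reads (adjusted p 0.859).

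**Figure D2:**
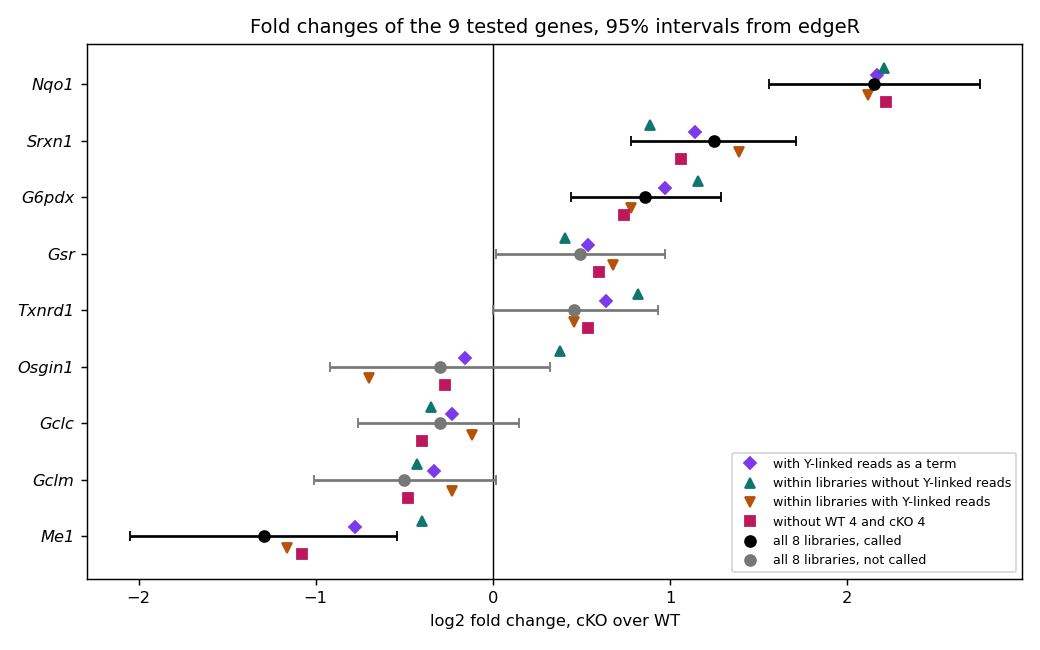
Log2 fold change of cKO over WT for the 9 tested genes with 95% intervals, black where the gene passed the test, beside 4 alternative values, which add presence of Y-linked reads as a term, use only libraries with or without such reads, or leave out WT 4 and cKO 4. Of the genes that rose, Nqo1 is at 2.15, Srxn1 at 1.25 and G6pdx at 0.86, and Me1, which fell, is at -1.29 and at -0.78 with the term.

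With presence of Y-linked reads as a term, 5.17% of all tested genes were higher and 1.63% lower. Of the 10 genes, 3 were higher in that fit, Nqo1, Srxn1 and G6pdx, and 0 were lower. Within the libraries with Y-linked reads, where 3.47% of genes were called in either direction, Nqo1 alone was called. Within those without, where 0.868% of genes were called, 0 of the 10 genes were. Without WT 4 and cKO 4, which left 4.10% of genes called, Nqo1 alone kept its call (log2 fold change 2.22, edgeR adjusted p 0.0105). A term for a different genotype effect by presence of Y-linked reads was also fitted. It rests on 1 cKO library with such reads and 1 WT library without, so it cannot show that the effects agree. Log2 fold changes within libraries with and without them were 2.12 and 2.21 for Nqo1, -1.16 and -0.4 for Me1, and -0.7 and 0.38 for Osgin1. Groups that did not overlap were seen in 4 of the 9 tested genes, Nqo1, Srxn1, G6pdx and Txnrd1, all with cKO above WT, against 13.1% of all tested genes with cKO above and 9.56% with cKO below.

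Set against exon length, the order of the genes differed between genotypes. In cKO kidneys Nqo1 was the most abundant, at 233 ± 59.8 CPM per kb of exon. It was followed by Me1 at 70.3 ± 21.0, Gsr at 68.0 ± 13.1, Srxn1 at 59.1 ± 8.52 and Gclc at 58.9 ± 7.38 CPM per kb, neighbours that do not differ beyond their spread. Gclm at 41.5 ± 9.25, Txnrd1 at 27.1 ± 2.08, G6pdx at 17.9 ± 2.63, Osgin1 at 14.5 ± 4.26 and Slc7a11 at 0.045 ± 0.0156 CPM per kb came after them, G6pdx and Osgin1 within their spread of each other. In WT kidneys Me1 led at 172 ± 62.0 CPM per kb, ahead of Gclc at 72.7 ± 7.72, Gclm at 58.6 ± 6.06, Nqo1 at 52.3 ± 13.2 and Gsr at 48.4 ± 7.18 CPM per kb, of which the last 3 overlapped. Srxn1 at 24.9 ± 5.17, Txnrd1 at 19.6 ± 4.32 and Osgin1 at 17.9 ± 6.57 CPM per kb also overlapped, and G6pdx at 9.87 ± 1.41 and Slc7a11 at 0.00985 ± 0.00558 CPM per kb were the lowest.

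Ratios of these length-scaled levels within a library show the same uneven change. Nqo1 stood at 3.73, 6.35, 3.41 and 2.81 times the level of Gclc in cKO 1 to 4, against 0.705, 0.994, 0.464 and 0.767 times in WT 1 to 4. The most extreme library was cKO 2, and all 4 WT libraries had less Nqo1 than Gclc per length. The ratio of catalytic to modifier subunit, Gclc over Gclm, was 1.26, 1.6, 1.29 and 1.65 in cKO 1 to 4 and 1.4, 1.19, 1.27 and 1.12 in WT 1 to 4, with overlapping groups. G6pdx over Me1 was 0.189, 0.268, 0.199 and 0.471 in cKO 1 to 4 and 0.0954, 0.0556, 0.0505 and 0.0504 in WT 1 to 4. The cKO libraries were above the WT libraries here, and Me1 stayed more abundant than G6pdx in all 8. These ratios describe the libraries and were not tested.

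Among 18 regulators of NRF2, 2 rose and 1 fell, with a median log2 fold change of -0.03 against -0.01 over all tested genes. Of all tested genes 9.57% rose and 7.14% fell, so the counts of this list were near these shares. Nfe2l2, the NRF2 gene, was at 104, 138, 103 and 129 CPM in cKO 1 to 4 and at 66.9, 64.7, 78.5 and 73.4 CPM in WT 1 to 4. The groups did not overlap. The means were 118 ± 17.8 CPM in cKO and 70.9 ± 6.28 CPM in WT kidneys, and the gene rose by 0.74 on the log2 scale (SE 0.19, edgeR adjusted p 0.022), a call lost without any of cKO 4, WT 2 or WT 4 (0.69 to 0.76, adjusted p 0.0516 to 0.0657) and with presence of Y-linked reads as a term (0.70, adjusted p 0.121). Maff, a small MAF partner, rose (7.92 ± 2.30 CPM in cKO and 1.64 ± 1.15 CPM in WT kidneys, log2 fold change 2.30, edgeR adjusted p 0.00692), but did not pass without WT 4 and cKO 4 (2.08, adjusted p 0.0766). Bach2, from a family that competes for the same sites, averaged 1.15 ± 0.156 CPM in cKO and 3.67 ± 2.01 CPM in WT kidneys, with overlapping groups. It fell by 1.66 on the log2 scale (edgeR adjusted p 0.0386), a call lost in 7 of the 8 fits that left out 1 library, all but that without WT 1, and at -0.80 with presence of Y-linked reads as a term (adjusted p 0.483). Keap1 was at 34.6 ± 4.52 CPM in cKO and 30.5 ± 3.59 CPM in WT kidneys (log2 fold change 0.18, edgeR adjusted p 0.531).

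Of 37 other targets of NRF2, 34 could be tested, and 13 rose and 3 fell, with a median log2 fold change of 0.75. The shares over all tested genes were 9.57% and 7.14%. The count of those higher was 12 with presence of Y-linked reads as a term, where 5.17% of all tested genes were higher. It was 8 without WT 4 and cKO 4, where 4.10% of all tested genes were called in either direction. Several code for enzymes of the detoxification system: Ugt1a6a, a glucuronosyltransferase, averaged 88.8 ± 8.81 CPM in cKO and 17.0 ± 4.08 CPM in WT kidneys (log2 fold change 2.39, edgeR adjusted p 8.5e-05), and Cbr3, a carbonyl reductase, averaged 136 ± 34.2 CPM in cKO and 3.31 ± 2.43 CPM in WT kidneys (log2 fold change 5.39, edgeR adjusted p 0.00013). Gsta1, an alpha class glutathione transferase, averaged 109 ± 71.3 CPM in cKO and 1.30 ± 1.11 CPM in WT kidneys (log2 fold change 6.39, edgeR adjusted p 0.000191). Gsta1 and Ugt1a6a share sequence with close paralogs, so how reads were divided among them is uncertain. Pir, which encodes the iron-binding protein pirin, averaged 7.98 ± 2.25 CPM in cKO and 1.10 ± 0.318 CPM in WT kidneys (log2 fold change 2.82, edgeR adjusted p 0.000509). The 3 that fell were Cd36, a fatty acid uptake receptor, Akr1b10 and Fech, and of these Cd36 alone was called with presence of Y-linked reads as a term, where Akr1b10 had an edgeR adjusted p of 0.156 and Fech of 0.254. The number that fell was 1 without any of cKO 1, cKO 2, cKO 4, WT 2, WT 3 or WT 4.

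**Figure D3:**
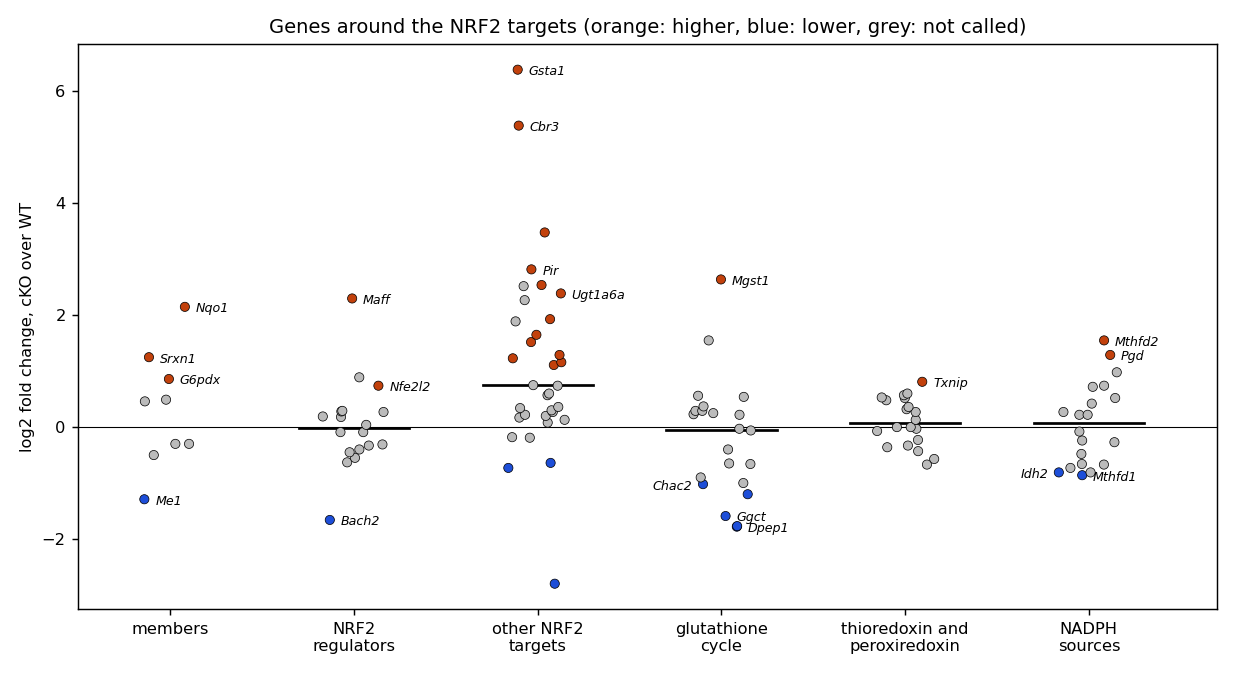
Log2 fold change of cKO over WT for the 9 tested members and every tested gene of 5 pathway lists, in a column each, in orange where higher, blue where lower and grey where the test was not passed; horizontal bars are list medians. Other NRF2 targets reach from Gsta1 at 6.39 to Cd36 at -2.80 with 13 higher and 3 lower, while 19 of 20 genes of the thioredoxin and peroxiredoxin cycle did not pass.

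The 22 genes of the glutathione cycle outside the 10 members had 1 that rose and 5 that fell, with a median log2 fold change of -0.05. Beside these stand 9.57% of all tested genes that rose and 7.14% that fell. Mgst1, a membrane-bound glutathione transferase, was the one that rose, at 508 ± 273 CPM in cKO and 81.8 ± 50 CPM in WT kidneys (log2 fold change 2.64, edgeR adjusted p 0.00375). Dpep1, a brush border dipeptidase that splits the breakdown product of glutathione, averaged 53.8 ± 15.4 CPM in cKO and 184 ± 64.5 CPM in WT kidneys (log2 fold change -1.77, edgeR adjusted p 0.00292). Ggct and Chac2, enzymes of glutathione breakdown, also fell, at 14.7 ± 4.61 CPM in cKO and 44.4 ± 10.9 CPM in WT kidneys for Ggct (log2 fold change -1.59, edgeR adjusted p 0.00358) and at 17.3 ± 4.99 CPM in cKO and 35.1 ± 8.65 CPM in WT kidneys for Chac2 (log2 fold change -1.02, edgeR adjusted p 0.0208). The Chac2 call was lost without cKO 3 or cKO 4. The number that fell was 2 without cKO 4, 3 without any of cKO 2, cKO 3, WT 3 or WT 4, and 2 with presence of Y-linked reads as a term, while 2 rose without WT 1. Dpep1 is a protein of the proximal tubule brush border, and the part of that segment's markers, 8 of 18 lower without the term and 1 of 18 with it, was not tested.

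The median log2 fold change of 20 genes of the thioredoxin and peroxiredoxin cycle was 0.07. Against 9.57% and 7.14% of all tested genes, 1 of them rose and 0 fell. This was Txnip, an inhibitor of thioredoxin, at 277 ± 82.9 CPM in cKO and 158 ± 25.4 CPM in WT kidneys (log2 fold change 0.81, edgeR adjusted p 0.0491), and the call was lost in 7 of the 8 fits that left out 1 library, all but that without cKO 3, and with presence of Y-linked reads as a term (adjusted p 0.251). Without WT 1, 0 of these genes rose and 1 fell.

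Of 20 other genes listed as NADPH sources, 2 rose and 2 fell, with a median log2 fold change of 0.07. The list was drawn widely and holds genes such as Tkt and Taldo1, so its counts do not describe NADPH production alone. Over all tested genes 9.57% were higher and 7.14% lower. Pgd, one of those that rose, is also counted among the other NRF2 targets that rose. Pgd encodes phosphogluconate dehydrogenase, which makes the next NADPH of the pentose phosphate pathway after G6pdx. It averaged 184 ± 13.5 CPM in cKO and 75.1 ± 12.1 CPM in WT kidneys without overlap (log2 fold change 1.29, SE 0.20, edgeR adjusted p 0.00163), and its value with presence of Y-linked reads as a term was 1.32 (adjusted p 0.00667). Mthfd2, a mitochondrial folate enzyme, also rose, at 13.1 ± 5.17 CPM in cKO and 4.50 ± 1.52 CPM in WT kidneys (log2 fold change 1.55, edgeR adjusted p 0.0103), but did not pass without WT 4 and cKO 4 (1.04, adjusted p 0.109). The genes that fell were Mthfd1, its cytosolic counterpart, at 115 ± 25.1 CPM in cKO and 209 ± 29.6 CPM in WT kidneys (log2 fold change -0.86, edgeR adjusted p 0.0227), and Idh2, the mitochondrial isocitrate dehydrogenase, at 251 ± 56.6 CPM in cKO and 440.1 ± 33.4 CPM in WT kidneys (log2 fold change -0.81, edgeR adjusted p 0.038). The calls of Mthfd1 and Idh2 were both lost with presence of Y-linked reads as a term (adjusted p 0.14 and 0.155), and of these genes 0 were lower without any of cKO 2, cKO 4, WT 3 or WT 4, and 1 without cKO 3 or WT 2.

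The genes whose profile over the 8 libraries was most like that of Nqo1 were sought among 12651 genes by the root mean square difference of log2 CPM, each centred on its own mean. The nearest were Cd109 at 0.18, Pbk at 0.20, Pclaf at 0.24, Eda2r at 0.25 and Cd84 at 0.26, where the median of all genes compared was 1.17. Cd109 encodes a membrane-anchored TGF-beta co-receptor, Pbk a mitotic kinase, Pclaf a factor that binds PCNA, Eda2r a receptor of the TNF receptor superfamily and Cd84 a surface receptor of leukocytes. All were far less abundant than Nqo1, at 3.75 to 6.55 CPM on average in cKO and 0.537 to 1.22 CPM in WT kidneys. Of the other members tested, Srxn1 at 0.59 was the nearest to Nqo1, followed by G6pdx at 0.78, Gsr at 0.91, Txnrd1 at 0.94, Gclc at 1.30, Osgin1 at 1.35, Gclm at 1.41 and Me1 at 1.79. The last 4 of these are farther from Nqo1 than the median gene. The difference between the genotypes enters this measure, and these 4 had negative fold changes. The order of the members thus follows the fold changes given above and is not a separate result.

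**Figure D4:**
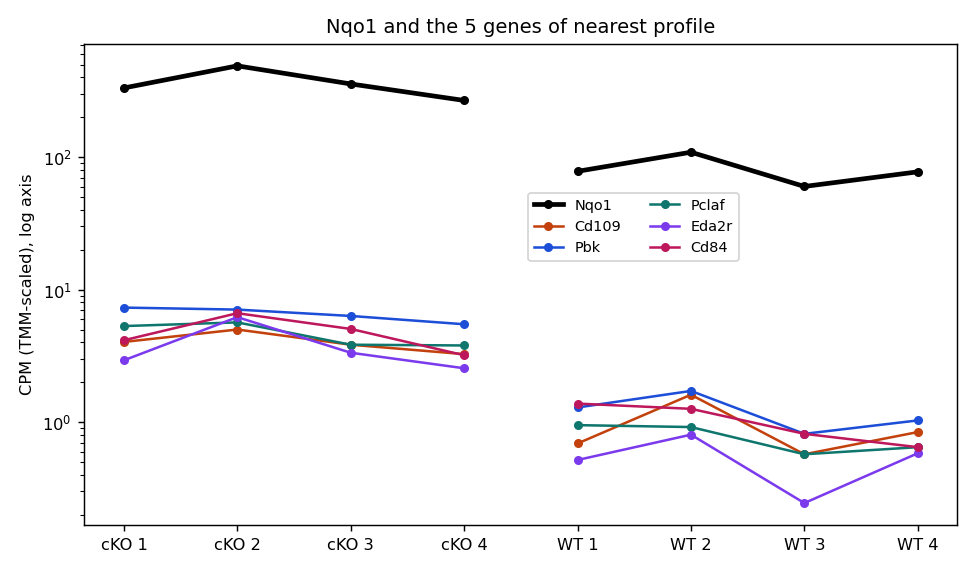
Level of Nqo1 and of the 5 genes nearest to it in profile in each of the 8 libraries, in CPM on a log axis, cKO left of WT. All 6 genes are higher in every cKO library than in any WT library, as are 13.1% of all tested genes. Nqo1, Cd109 and Eda2r are highest in cKO 2 and WT 2 within their groups. The 5 genes were chosen for nearness to Nqo1 in these same libraries, so their likeness to it comes with the choice.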

How the data were processed

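Messenger RNA of 8 mouse kidneys, 4 per genotype, was sequenced from stranded libraries per the labels. The authors deposited 1 table of expected counts per library, and per the submitters' processing notes STAR, RSEM and the mm10 build were used; versions, annotation and strand setting were not given in the sources used here. Of 47643 genes, 47224 identifiers were matched to symbols. Expected counts were rounded, filtered with filterByExpr and scaled by TMM, and 13829 genes were tested with edgeR 4.0.16 in R 4.3.3 (glmQLFit with robust estimation and glmQLFTest, two-sided, Benjamini-Hochberg adjustment over all tested genes, threshold 0.05). CPM was computed from these counts. Libraries of 9454830 to 15838026 counts limit genes with few counts, such as Slc7a11. Alternatives used DESeq2 1.42.0, limma 3.58.1, other scalings and filters, terms for age, replicate number and Y-linked reads (present with at least 10 counts), and left out libraries. The script was tested on simulated data. Gene positions came from a GENCODE annotation of GRCm38. The members, lists and tests were chosen with earlier results of these data known. The text names the members, Cox10, Nfe2l2, Keap1, up to 4 called genes per pathway list with the smallest adjusted p and the 5 genes nearest Nqo1; Ikbkg, G6pd2 and Gm17494 were named for overlap or similarity, and Cd36, Akr1b10 and Fech after their values were seen. Cell type lists are given by counts and sums, with few genes named. Kap was named for its share of the sum after the values were seen, Ngp, Camp and Mpo for their absence and Slc4a1 as shared by lists. Pathway lists also share genes. Pgd, Tkt and Taldo1 are in other NRF2 targets and NADPH sources, Txn1 and Prdx1 in other NRF2 targets and the thioredoxin cycle, and Sesn2 in regulators and the thioredoxin cycle.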

Additional observations from a re-analysis of the deposited data

How the results depend on the processing

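Over 23 alternatives, 189 of the members' 207 values kept their direction and side of the threshold, 17 kept the direction and lost the call, and Osgin1 reversed to 0.38 within libraries without Y-linked reads. The number of genes called, 2310 in all 8 libraries, was 941 with presence of Y-linked reads as a term, 120 within libraries without them, 480 within libraries with them, 1397 without the 2.5-month pair, 568 without WT 4 and cKO 4, and 1155 to 3093 when 1 library was left out, the lowest without cKO 4 and the next without WT 4 (1288) and WT 3 (1438). Members higher in cKO numbered 0 within libraries without Y-linked reads, 1 within those with them, 1 without WT 4 and cKO 4, and 3 in each fit that left out 1 library. Members lower in cKO numbered 0 with the term, within either set of libraries, without the 2.5-month pair (Me1 -1.21, edgeR adjusted p 0.103) and without WT 4 and cKO 4 (Me1 -1.08, edgeR adjusted p 0.19), and 0 to 1 when 1 library was left out. Cox10 reversed to 0.07 within libraries with Y-linked reads. The causes were not tested. Scaling by library size gave a median log2 fold change over all genes of 0.15, against -0.01 with TMM, and 1866 genes higher and 550 lower, against 1323 and 987, without turning the direction of any member. Over all alternatives, higher and lower genes numbered 4 to 17 and 0 to 3 for other NRF2 targets, 0 to 2 and 0 to 2 for regulators, 0 to 2 and 0 to 8 for the glutathione cycle, 0 to 1 and 0 to 1 for the thioredoxin cycle and 0 to 4 and 0 to 5 for NADPH sources. DESeq2 called 3165 genes and limma-voom 2304. Deviations from the group means correlated between same-numbered samples at r of -0.08, 0.28, 0.12 and 0.00, against -0.28 to 0.20 for different numbers. The pair at 0.28, that of replicate 2, labelled 2.5 months in both groups, was above that range. As 2 of the 4 were not above 0.1, the numbers were not taken as pairs. With the replicate block 2208 genes were called, and with a term for age 2980. The members' calls were the same 3 higher and 1 lower in both fits. With 1 WT library without Y-linked reads and 1 cKO library with them, the values within each set rest on a lone library, assumed to vary like the others.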
